A study of Danio rerio with 4 samples.

Results

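The transcripts described here belong to 6 genes of cell cycle arrest and programmed cell death, out of 32313 Ensembl genes measured in zebrafish (Danio rerio) embryos. They are cdkn1a (ENSDARG00000076554), RBL2 (ENSDARG00000045636), PHLDA3 (ENSDARG00000037804), bbc3 (ENSDARG00000069282), pmaip1 (ENSDARG00000089307) and casp8 (ENSDARG00000058325). They were taken by identifier and had been chosen by their measured ratios of morphant to wild type: each stood high in total mRNA, in polysomal mRNA or in both. Those ratios are therefore a description, with no test, and do not count as evidence that the group is affected.

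The study asks which mRNAs need eIF3h, a subunit of the initiation factor eIF3, to enter polysomes. The 4 libraries, 1 each, are polysomal mRNA of eif3ha morphants, polysomal mRNA of wild type, total mRNA of eif3ha morphants and total mRNA of wild type. All come from whole embryos pooled at about 24 hours after fertilization, 300 embryos for a polysomal library and 50 for a total one. Polysomes are mRNAs carrying many ribosomes, and morphants are embryos given an antisense morpholino. The labels list no embryos given a control morpholino, so injection and loss of eIF3h cannot be told apart. With 1 library a group, no difference below has a replicate check, and fewer cells of a type cannot be told apart from less RNA per cell.

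Cells that sense DNA damage or other stress can halt the cell cycle or die, and the transcription factor p53 drives genes for both outcomes. Arrest is carried out by inhibitors of cyclin-dependent kinases such as the cdkn1a product p21, and by pocket proteins such as the RBL2 product p130, which hold E2F factors in check. Death through mitochondria starts with BH3-only proteins, among them the products of bbc3 (Puma) and pmaip1 (Noxa), which disarm protective BCL2 proteins. Death through surface receptors runs over caspase-8, encoded by casp8. In mammals cdkn1a, bbc3, pmaip1 and PHLDA3 are known p53 targets, and the PHLDA3 protein competes with the kinase AKT for membrane lipids and so dampens a survival signal.

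Levels are RPKM, read numbers normalised for gene model length and library depth, as deposited. Low values move in whole steps of 1 read, so that 1 read on a gene model of 1 kb was worth 0.0455 RPKM in morphant and 0.0634 RPKM in wild-type polysomal mRNA. In total mRNA it was worth 0.0476 RPKM in morphants and 0.0401 RPKM in wild type, and the smaller the step, the deeper the library. The files follow the number of reads plus 1, so no value is 0. Reads were recovered for each of the 6 genes, at the shortest gene model length that gives whole reads in all 4 libraries. Intervals in the text are 95% intervals from these reads and cover counting error only. They are too narrow for polysomal ratios: of 998 genes with 2 reads summed over the polysomal libraries, 19.8% had 1 read in each, against 48.6% from depth alone. In total mRNA the same share was 45.4% of 842 genes, against 49.6% from depth alone. Of whole-embryo markers in both total libraries, 19 of 21 markers of muscle, heart, blood, skin, nervous system, pigment and hatching gland reached 3 RPKM there, the exceptions being NKX2-5 and gata1a. EIF3H (ENSDARG00000036116), which encodes eIF3h, had 5.92 RPKM in morphant and 6.24 RPKM in wild-type total mRNA. Its name here does not tell whether it is eif3ha, the gene named in the labels. A morpholino need not lower the mRNA it binds, so this level does not measure the knockdown.

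In total mRNA, which measures the level of a transcript in the whole embryo, all 6 genes were more abundant in morphants. The gap was about 9-fold or more on reads for 5 of them and 3.77-fold for pmaip1. Log2 ratios are morphant over wild type after adding 0.5 RPKM to each value, which understates differences of weakly expressed genes. A ratio was counted where at least 1 library compared reached 3 RPKM. At this floor all 6 genes exceeded wild type by 2-fold or more, a share to be read against 1.43% of 12154 genes. That contrast chose the genes, so nothing is read from the count.

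The kinase inhibitor gene cdkn1a had 23.6 RPKM in morphant total mRNA, against 1.76 RPKM in wild type. These values rest on 1898 reads in morphants and 167 in wild type. The log2 ratio was 3.41, and the reads gave a 13.5-fold difference (interval 11.5 to 15.9). The pocket protein gene RBL2 had 21.6 RPKM in morphant total mRNA, against 2.13 RPKM in wild type, from 3195 and 372 reads. Its log2 ratio was 3.07, or 10.2-fold on reads (9.15 to 11.4). Both arrest genes were thus scarce in wild-type embryos and moderately abundant in morphants, where cdkn1a held rank 2612 and RBL2 rank 2830 of all genes.

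PHLDA3, the AKT antagonist, had 47.7 RPKM in morphant total mRNA, against 4.21 RPKM in wild type. Its log2 ratio was 3.36, from 1489 reads in morphants and 155 in wild type, or 11.4-fold (9.65 to 13.5). It had the highest level of the 6 in both polysomal libraries and in morphant total mRNA, while pmaip1 was higher in wild-type total mRNA.

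The BH3-only gene bbc3 had 10.7 RPKM in morphant total mRNA, against 0.825 RPKM in wild type, the lowest level of the 6 there. The log2 ratio of 3.07 was held down by the added 0.5 RPKM, and the reads (1045 in morphants, 95 in wild type) gave 13.1-fold (10.6 to 16.3). The other BH3-only gene, pmaip1, had 19.0 RPKM in morphant total mRNA, against 5.23 RPKM in wild type. Its log2 ratio was 1.76, from 54 reads in morphants and 17 in wild type, or 3.77-fold (2.15 to 6.93). The few reads go with a recovered gene model of only 138 bases, and a model of a multiple of that length would mean proportionally more reads. The initiator caspase gene casp8 had 35.4 RPKM in morphant total mRNA, against 3.88 RPKM in wild type, a log2 ratio of 3.04. On reads, 1509 in morphants and 195 in wild type, it differed 9.18-fold (7.90 to 10.7). The intervals of the 5 genes other than pmaip1 lie within 7.90 to 16.3-fold, and the pmaip1 interval ends below that range.

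**Figure D1:**
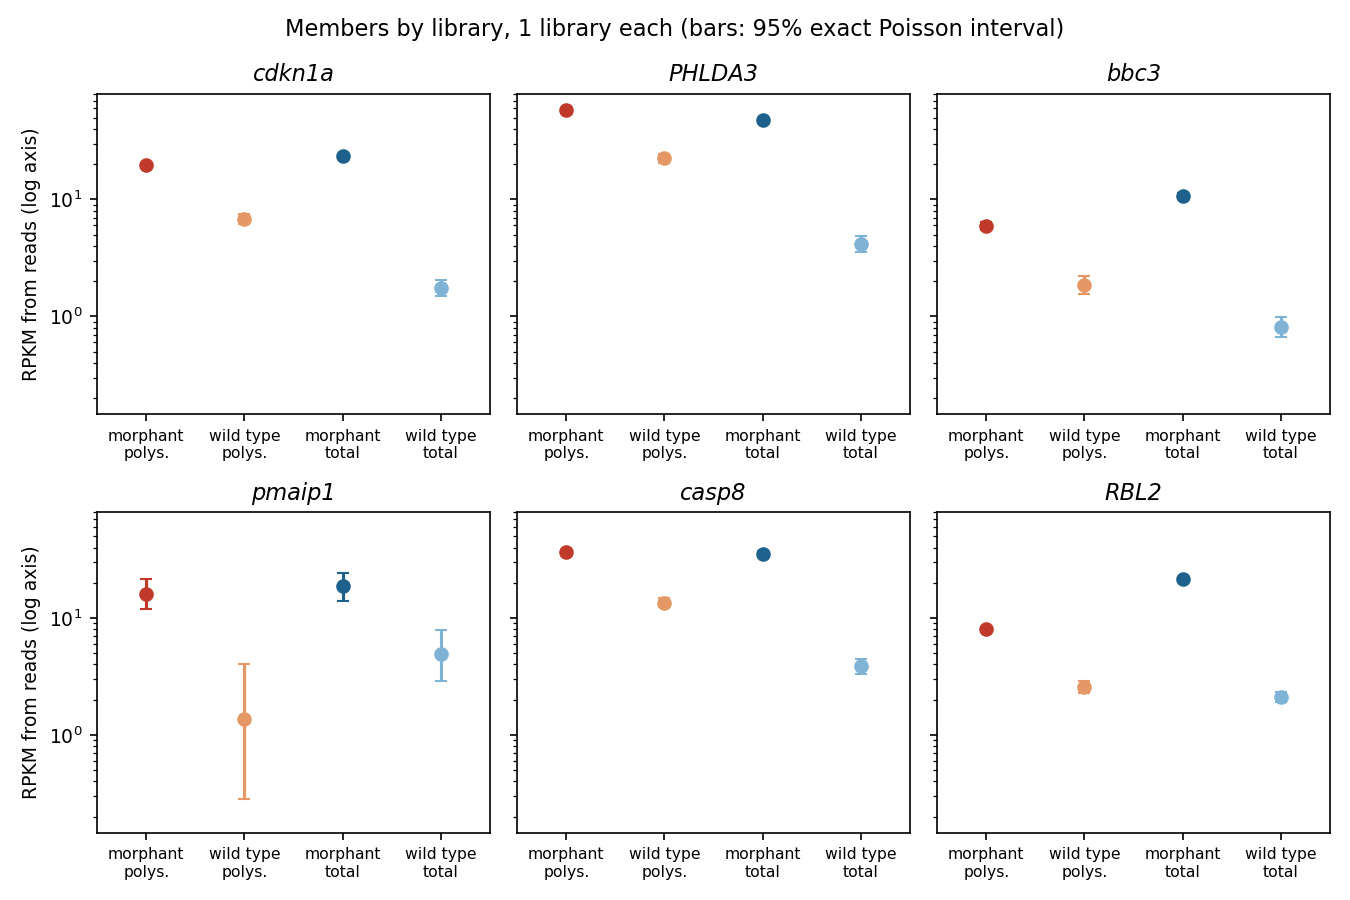
Level of each of the 6 transcripts (RPKM computed from recovered reads, log axis) in the 4 libraries, 1 point per library, with exact 95% Poisson intervals of the reads. In both fractions the morphant point lies above the wild-type point for each gene, and for 5 of the 6 the wild-type total library holds the lowest level; for pmaip1 it is the wild-type polysomal library, with 3 reads.

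Among the 12154 genes above the floor in total mRNA, cdkn1a had rank 11 from the highest ratio and PHLDA3 rank 12. Ranks 14, 15 and 16 were bbc3, RBL2 and casp8, and pmaip1 had rank 51.

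In polysomal mRNA, which reflects both the amount of a transcript and its loading with ribosomes, all 6 were again more abundant in morphants. The gap was 2.57 to 3.20-fold on reads for 5 of them and larger for pmaip1. All 6 were at least 2-fold higher, where 1.76% of 8261 genes were, again a contrast used in choosing them.

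For the arrest genes, cdkn1a had 19.6 RPKM in morphant and 6.88 RPKM in wild-type polysomes, a log2 ratio of 1.45, or 2.86-fold on reads (2.56 to 3.19). RBL2 had 7.98 RPKM in morphant and 2.58 RPKM in wild-type polysomes, a log2 ratio of 1.46, or 3.10-fold (2.72 to 3.54). PHLDA3 had 57.8 RPKM in morphant and 22.5 RPKM in wild-type polysomes, a log2 ratio of 1.34, or 2.57-fold (2.33 to 2.84). The difference was thus close to 3-fold for both arrest genes and slightly smaller for PHLDA3.

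Among the death genes, bbc3 had 5.97 RPKM in morphant and 1.88 RPKM in wild-type polysomes, a log2 ratio of 1.45, or 3.20-fold (2.66 to 3.88). The casp8 transcript had 36.7 RPKM in morphant and 13.6 RPKM in wild-type polysomes, a log2 ratio of 1.40, or 2.70-fold (2.43 to 3.01). The pmaip1 transcript had 16.5 RPKM in morphant and 1.84 RPKM in wild-type polysomes, a log2 ratio of 2.86 and rank 1 of the 8261 genes. That rank rests on 49 reads in morphants and 3 in wild type, and the interval of 3.78 to 58.7-fold starts near the values of the other 5 genes.

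**Figure D2:**
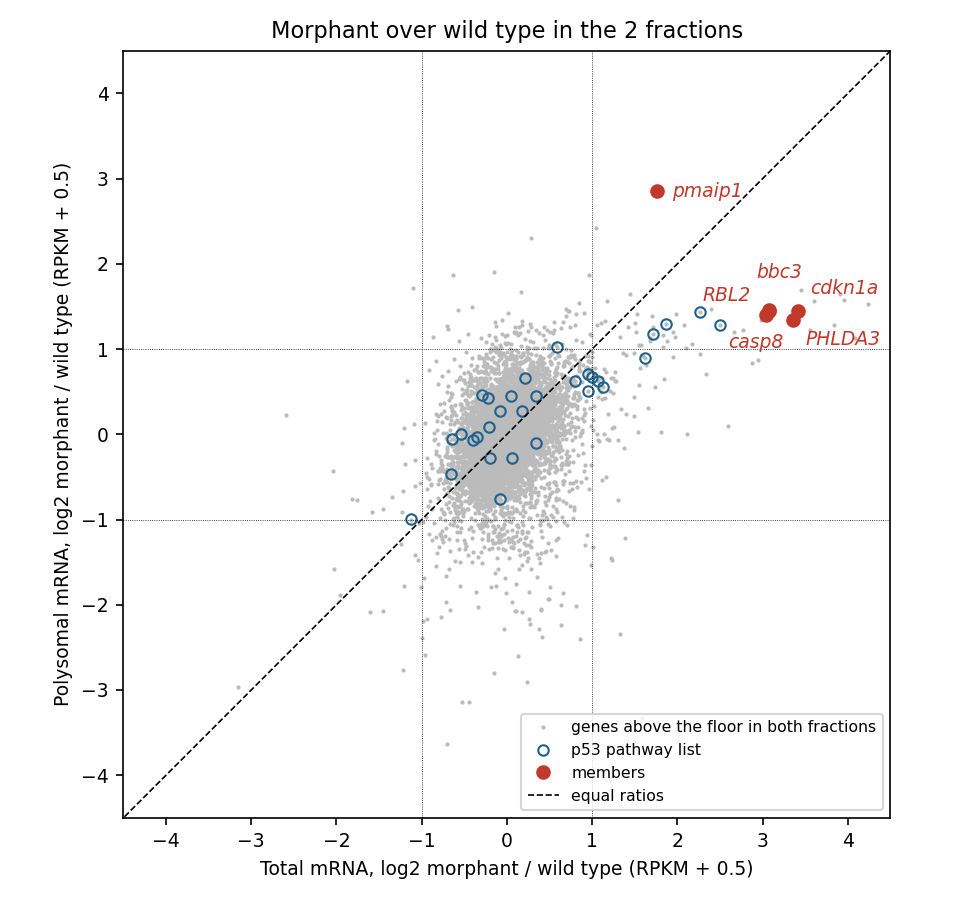
Log2 ratio of morphant to wild type in total mRNA (x axis) and in polysomal mRNA (y axis), each after adding 0.5 RPKM, for 7825 genes above the floor in both fractions. Red points are the 6 genes, open circles the p53 pathway list, dotted lines 2-fold and the dashed line equal ratios; 5 of the 6 lie below the dashed line and pmaip1 above it.

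Polysome association, here the log2 ratio in polysomal mRNA less that in total mRNA, sets the difference in polysomes against the difference in amount. Polysomal libraries came from pools of 300 embryos and total libraries from pools of 50, and the labels do not say whether these shared clutches. A difference between the total libraries alone would also move association, which therefore does not isolate ribosome loading. It was lower in morphants for cdkn1a (-1.97), PHLDA3 (-2.01), bbc3 (-1.63), casp8 (-1.64) and RBL2 (-1.61). It was higher for pmaip1, at 1.096, or 1.64 on reads. The intervals belong to values on reads, without the added 0.5 RPKM. On reads, association was -2.24 for cdkn1a (-2.51 to -1.96), -2.15 for PHLDA3 (-2.42 to -1.87) and -2.03 for bbc3 (-2.43 to -1.62). For casp8 it was -1.76 (-2.03 to -1.50), and for RBL2 it was -1.72 (-1.96 to -1.47). The pmaip1 interval, -0.22 to 3.49, includes 0 at the recovered gene model length. A model of a multiple of that length would give a narrower interval. Whether its association differed is therefore not settled by these reads.

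Association was counted where each total library and 1 or more polysomal libraries reached 3 RPKM. Only PHLDA3, casp8 and pmaip1 passed, because cdkn1a, bbc3 and RBL2 were below 3 RPKM in wild-type total mRNA. PHLDA3 and casp8 were at least 2-fold lower, where 3.07% of 7546 genes were, and pmaip1 was at least 2-fold higher, where 1.62% were. The total ratio enters association with the opposite sign, so choosing genes for a high total ratio pushes their association down. The polysomal ratio enters with its own sign, so choosing genes for a high polysomal ratio pushes their association up. This bears most on pmaip1, at rank 1 of 8261 genes in polysomal mRNA. It passed the polysomal floor in morphants alone, with 16.5 RPKM against 1.84 RPKM in wild type. Of 34 further genes at least 4-fold higher in morphant total mRNA, 34 had a smaller polysomal than total ratio and 30 were at least 2-fold lower in association. Their median association was -1.89. These genes were picked by the same total ratio, so their counts and median are largely set by that choice and are given as a description only.

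Polysomal mRNA was next divided by total mRNA, separately for morphants and for wild type. The genes were chosen partly for high morphant over wild-type total mRNA, which pushes the morphant ratio down and the wild-type ratio up. These ratios therefore cannot place the lower association in either condition and are given as a description. In morphants, log2 of polysomal over total RPKM was 0.28 for PHLDA3, 0.05 for casp8, -0.20 for pmaip1, -0.26 for cdkn1a, -0.79 for bbc3 and -1.38 for RBL2. The median over 11951 genes was -0.70, so RBL2 was below the typical gene, and PHLDA3, casp8 and cdkn1a were above it. On reads, the intervals of bbc3 (-0.98 to -0.69) and pmaip1 (-0.79 to 0.38) included the median of genes with recovered reads, -0.78. Neither bbc3 nor pmaip1 was thus told apart from the typical gene, for pmaip1 only at the recovered gene model length, since a longer model would narrow its interval. RBL2 was at least 2-fold lower in polysomal than in total mRNA, as were 41.1% of genes, and none of the 6 was at least 2-fold higher, where 6.81% of genes were.

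In wild type the same ratio was 2.29 for PHLDA3, 1.71 for cdkn1a, 1.69 for casp8, 0.84 for bbc3, 0.23 for RBL2 and -1.29 for pmaip1. The median over 12072 genes was -0.71. PHLDA3, cdkn1a and casp8 exceeded 98.5%, 96.0% and 95.8% of genes. These 3 of the 4 genes past the floor had 2-fold or more in polysomal over total mRNA, where 10.5% of all genes were. The fourth, pmaip1, was at least 2-fold lower, where 42.7% of genes were, from 3 polysomal and 17 total reads. The floor partly shaped these counts. In wild type cdkn1a passed it in polysomal mRNA alone (6.88 RPKM, against 1.76 RPKM in total mRNA). The pmaip1 transcript passed in total mRNA alone (5.23 RPKM, against 1.84 RPKM in polysomes), and bbc3 and RBL2 passed in neither. On reads, polysomal mRNA of wild type exceeded total mRNA 5.38-fold for PHLDA3 (4.49 to 6.47), 3.92-fold for cdkn1a (3.27 to 4.72) and 3.51-fold for casp8 (2.96 to 4.18). The wild-type total library, whose low values chose these genes, enters this ratio too.

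**Figure D3:**
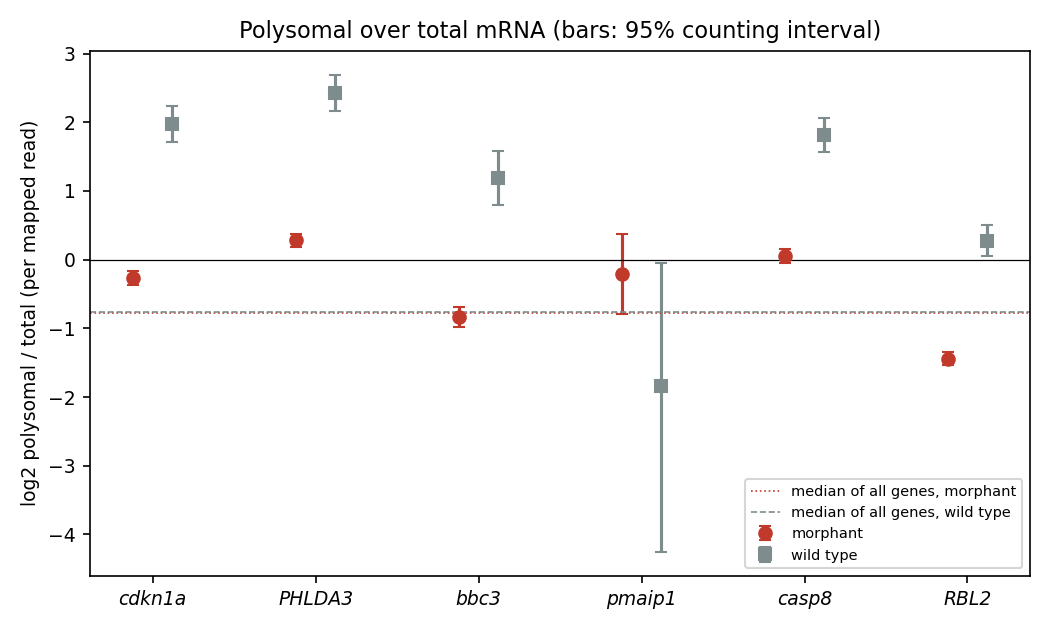
Log2 of polysomal over total mRNA per mapped read for each gene, in morphants (circles) and wild type (squares), with 95% counting intervals. Lines give the median of all genes with recovered reads, -0.78 in morphants and -0.77 in wild type; for 5 genes the morphant point lies below the wild-type point, and for pmaip1 the wild-type interval overlaps the morphant one.

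The 6 genes differed among themselves. Their profiles over the 4 libraries, each as log2 of RPKM plus 0.5 and centred on its own mean, were compared by Euclidean distance. The nearest pair was cdkn1a and casp8 at 0.31, followed by PHLDA3 and casp8 at 0.47 and by cdkn1a and PHLDA3 at 0.57. RBL2 was nearest to bbc3 at 0.61. These were the only 2 of the 6 below the median polysomal over total ratio of all genes in morphants, bbc3 within counting error. The most distant gene was pmaip1, at 1.37 to 2.56 from the others, with only 3 polysomal and 17 total reads in wild type.

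Profiles were also compared with those of 9285 other named genes that had at least 3 RPKM in 1 library. The 8 nearest of these to the median profile of the 6 were c4b (0.72), LNX1 (0.72), UPB1 (0.83), ace (0.87), ASIC1 (0.90), EXO5 (0.97), CCNG1 (0.99) and lyrm1 (0.99). To single genes, isg15 was nearest of those compared to cdkn1a (0.65), to PHLDA3 (0.34) and to casp8 (0.71), LNX1 to bbc3 (0.25), FST to pmaip1 (1.05) and ATXN1 to RBL2 (0.30).

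Other genes of the pathway were followed through 8 lists of regulators, partners and relatives, with the 6 genes left out. The lists were drawn up with earlier results of these data known, so their counts are a description and no independent support. List ratios are morphant over wild type after adding 0.5 RPKM. In total and in polysomal mRNA, genes above the floor and beyond 2-fold were found in the p53 pathway list and in none of the other 7. Those 7 lists are short, and with 1.43% of all genes higher and 0.675% lower in total mRNA, a count of 0 in a list of 3 to 16 genes is near the background. Of its 37 genes above the floor in total mRNA, 7 exceeded wild type by 2-fold or more in morphants and 1 was that much lower, and its median log2 ratio was 0.18. Over all genes 1.43% were that much higher and 0.675% that much lower, with a median of -0.02. In polysomal mRNA 5 of 31 were at least 2-fold higher and none lower, with a median of 0.44 against -0.01 over all genes. There 1.76% of genes were that much higher and 4.12% that much lower. When the 50 most abundant genes were kept out of the library totals, the polysomal median over all genes moved to 0.22, and 59.4% of the 2-fold calls were higher in place of 29.9%. The list median was not computed under that scaling, so its 0.44 is not to be set against 0.22.

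The 7 genes include a p53 antagonist and several p53 targets. CCNG1 (ENSDARG00000076667), the cyclin G1 gene and a known p53 target, had 884 RPKM in morphant and 156 RPKM in wild-type total mRNA, the largest ratio in this list. GADD45A (ENSDARG00000043581), a stress-induced growth arrest gene, had 19.2 RPKM in morphant and 3.58 RPKM in wild-type total mRNA, a log2 ratio of 2.27. The p53 ubiquitin ligase gene mdm2 (ENSDARG00000033443) had 26.1 RPKM in morphant and 6.82 RPKM in wild-type total mRNA, a log2 ratio of 1.86. The stress gene sesn3 (1.72), the transcription factor gene foxo3b (1.62), 1 of 2 PLK2 copies (ENSDARG00000090752, 1.13) and 1 of 2 GADD45B copies (ENSDARG00000013576, 1.07) completed the 7.

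The gene at least 2-fold lower was MDM4 (ENSDARG00000057513), a second p53 inhibitor. It had 10.2 RPKM in morphant and 22.9 RPKM in wild-type total mRNA, a log2 ratio of -1.13. In polysomes it had 6.75 RPKM in morphants and 14.0 RPKM in wild type. MDM4, foxo3b, PLK2 and GADD45B are named here after their values were seen. In polysomal mRNA GADD45A (1.43), mdm2 (1.29), CCNG1 (1.29) and sesn3 (1.18) were among the 5 at least 2-fold higher. The 7 genes raised in total mRNA were all above 0 in polysomal mRNA with a smaller ratio there, which picking them by their total ratio favours. Over the whole list, 15 of 28 genes above the floor for association were above 0, with a median of 0.10 against -0.00 over all genes. CCNG1 (-1.22) was the 1 of these 28 that was 2-fold or more lower in association, a share near the 3.07% of all genes.

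**Figure D4:**
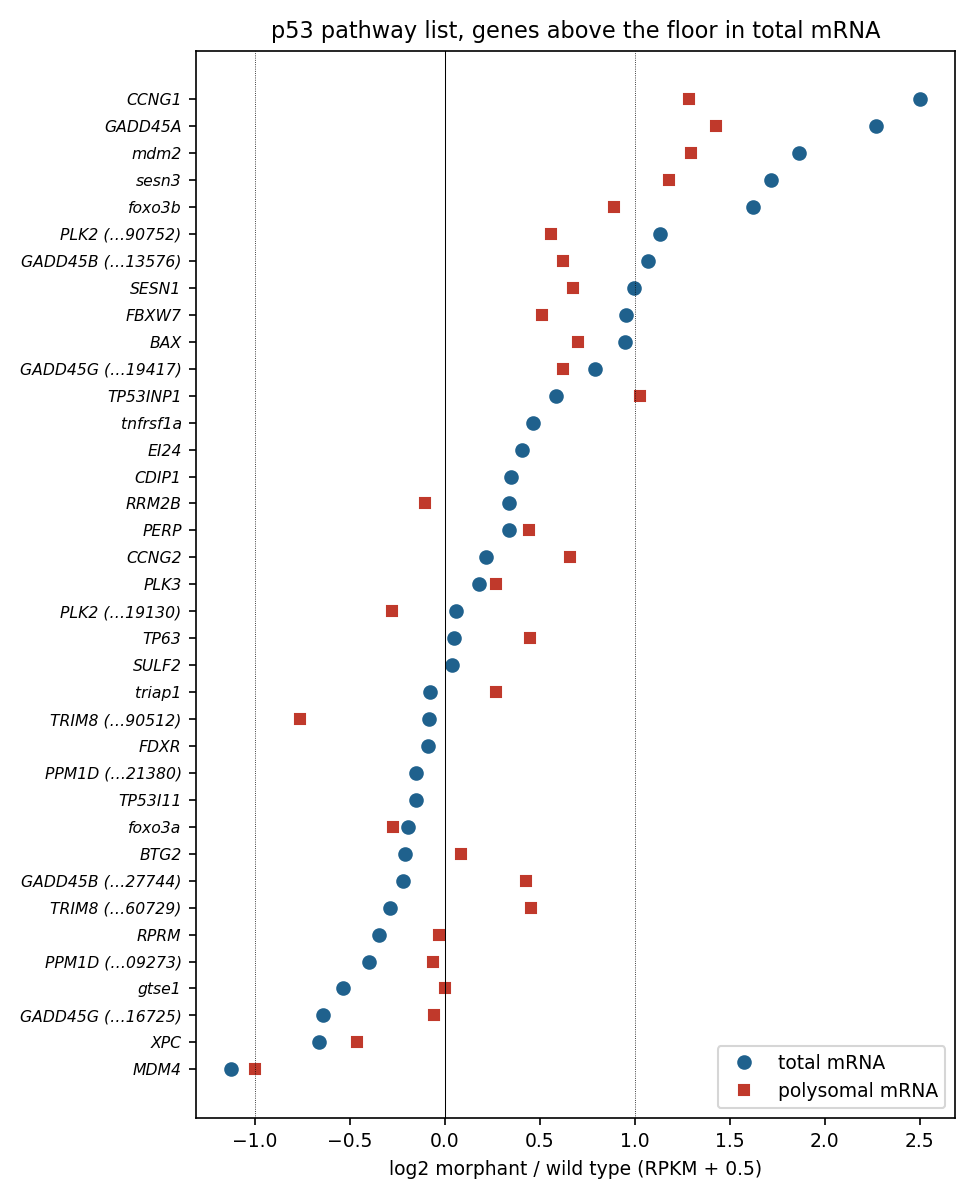
Log2 ratio of morphant to wild type, after adding 0.5 RPKM, for the 37 genes of the p53 pathway list above the floor in total mRNA (circles), with the polysomal ratio (squares) where that was above the floor too. CCNG1, GADD45A and mdm2 lie farthest to the right in total mRNA, and in each the square lies left of the circle; MDM4 lies farthest to the left.

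After adding 0.5 RPKM, the BCL2 family, on which bbc3 and pmaip1 act, had no member 2-fold different. This covers 15 members above the floor in total mRNA and 8 in polysomal mRNA. Over all genes 1.43% were at least 2-fold higher and 0.675% lower in total mRNA, and 1.76% and 4.12% in polysomal mRNA. Such counts, here and in the lists below, are therefore near the background. The pore-forming effector gene BAX (ENSDARG00000020623) had 41.3 RPKM in morphant and 21.2 RPKM in wild-type total mRNA, a log2 ratio of 0.95 (interval on reads 0.87 to 1.06). In polysomal mRNA its log2 ratio was 0.70. The protective gene mcl1a stood at -0.30 in total and -0.53 in polysomal mRNA. Further members named by size were bada (0.69), BNIP3L (ENSDARG00000028067, 0.58) and BNIP1 (-0.87) in total mRNA, and badb (0.58) and bida (-0.49) in polysomal mRNA. On reads, without the added 0.5 RPKM, BNIP1 stood at -1.09 in total mRNA (-1.76 to -0.47), which is beyond 2-fold.

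Of the caspases, their platforms and inhibitors, 14 were above the floor in total mRNA and 11 in polysomal mRNA, and none was 2-fold different. The largest ratio in total mRNA was that of CASP6 (0.68), an effector caspase, with 15.5 RPKM in morphants and 9.48 RPKM in wild type. ENDOG, a nuclease, stood at 0.37 in total and 0.45 in polysomal mRNA. In the death receptor arm, which activates caspase-8, none of 12 genes in total mRNA and none of 5 in polysomal mRNA was 2-fold different. The ligand gene TNFSF10 stood at 0.57 in total and 0.70 in polysomal mRNA, and hdr, a death receptor gene of blood cells, at 0.04 and 0.95. These values and counts include the added 0.5 RPKM. On reads, hdr stood at 1.19 in polysomal mRNA (0.86 to 1.53), which is beyond 2-fold.

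Other inhibitors of cyclin-dependent kinases had 3 members above the floor. CDKN1B (ENSDARG00000029018), the p27 gene, stood at 0.73 in total and 0.84 in polysomal mRNA, cdkn1ca at -0.30 and 0.17, and CDKN3 at -0.17 and -0.63. None was 2-fold different in either fraction. Pocket proteins, E2F factors and their partners had none of 16 beyond 2-fold in total mRNA and none of 15 in polysomal mRNA. RBL1, the pocket protein gene most like RBL2, had 12.1 RPKM in morphant and 16.5 RPKM in wild-type total mRNA, a log2 ratio of -0.43. The retinoblastoma gene RB1 stood at 0.42 in polysomal mRNA, the repressor gene E2F7 at 0.73 in total mRNA, and e2f2 at -0.56 in total and -0.57 in polysomal mRNA.

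Of 13 cyclins, cyclin-dependent kinases and their regulators above the floor in total mRNA, 1 had a log2 ratio above 0 and none was 2-fold different. Their median was -0.28, against -0.02 over all genes. CDK4, a kinase of early G1, stood at -0.48, ccnb3 at -0.42 and CDK2 at -0.40. In polysomal mRNA 5 of 12 were above 0, with a median of -0.07 against -0.01 over all genes, and the S-phase cyclin gene CCNA2 stood at 0.94. Among AKT and its regulators, 13 genes in total mRNA and 8 in polysomal mRNA held none beyond 2-fold. PHLDA2, a relative of PHLDA3, had 40.7 RPKM in morphant and 20.4 RPKM in wild-type total mRNA, a log2 ratio of 0.98, and 0.85 in polysomal mRNA.

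**Figure D5:**
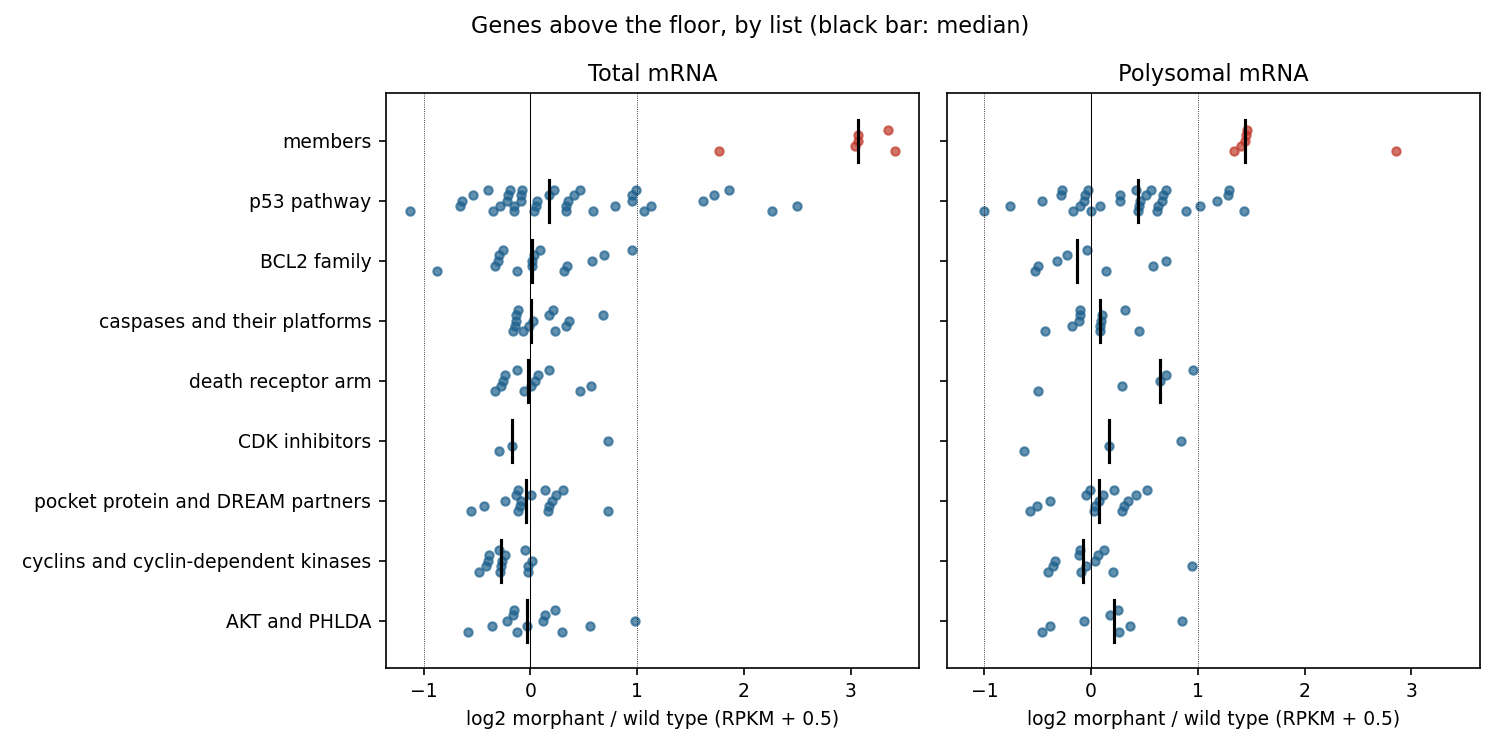
Log2 ratio of morphant to wild type, after adding 0.5 RPKM, in total mRNA (left) and polysomal mRNA (right) for the 6 genes (red) and for each list's genes above the floor (blue), with a black bar at each median. Dotted lines mark 2-fold; apart from the 6 genes, points beyond them occur in the p53 pathway list alone among these 8 lists.

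Tissue markers also differed between morphants and wild type. The summed RPKM of 3 nervous system markers was 85.2 in morphant and 123 in wild-type total mRNA. It went the other way in polysomal mRNA, at 37.6 in morphants and 30.7 in wild type, and SOX2 made up most of it (34.2 and 27.2 RPKM). The polysomal log2 ratios were 0.32 for SOX2, 0.10 for NEUROD1 and -0.25 for ELAVL3, the last 2 below 3 RPKM in both polysomal libraries. The sum of 3 hatching gland markers was 252 in morphant and 158 in wild-type total mRNA. For 3 heart markers it was 10.8 in morphant and 5.55 in wild-type polysomal mRNA, and 25.3 and 22.8 in total mRNA. Log2 ratios of the heart markers in total mRNA were 0.37 for MYL7, -0.04 for HAND2 and -0.22 for NKX2-5. For 3 pigment markers the sum was 21.1 in morphant and 41.5 in wild-type polysomal mRNA, and 39.5 and 30.9 in total mRNA. In total mRNA the pigment markers stood at 0.48 for pmela, 0.35 for TYR and -0.23 for DCT. Polysomal sums of 3 skeletal muscle markers were 208 in morphants and 453 in wild type. In polysomal mRNA both TNNT3 copies were lower in morphants (log2 ratios -1.297 and -2.017), and the third muscle marker, MYOD1, was higher (0.312). In total mRNA the muscle sum was higher in morphants, at 126 against 86.4 in wild type. Both TNNT3 copies were higher there (0.92 and 0.81), and MYOD1 was not (-0.04). Polysomal sums of the 3 hatching gland markers were 110 in morphants and 47.0 in wild type, a log2 ratio of 1.23. In total mRNA the hatching gland sums had a log2 ratio of 0.668, with he1.1 at 0.98, he1.2 at 1.15 and ctslb at 0.43. Of the 6 genes, 5 lay between 1.34 and 1.46 in polysomal mRNA. The same 5 lay between 3.04 (casp8) and 3.41 (cdkn1a) in total mRNA. The part of embryo composition in the ratios of the 6 genes was not tested.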

How the data were processed

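The authors deposited 1 RPKM value per Ensembl gene and library, per the file headers. Per the labels' protocols, Trizol RNA was poly(A)-selected, made into libraries with an Illumina kit and sequenced as single reads of 36 bases. The submitters' processing notes name Zv9; the aligner, counting tool and gene annotation were not given in the sources used here. Of 32313 genes, 20499 have a name in the names table; no positions or sequences were used.

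Recovered depths were 22000000 mapped reads for morphant and 15770000 for wild-type polysomal mRNA, and 21020000 for morphant and 24940000 for wild-type total mRNA. Depths and reads were recovered from the RPKM steps for 30737 genes (95.1%), with a tolerance of 0.01 step plus rounding. Of 12590 genes with at least 3 RPKM in 1 library or more, reads were recovered for 87.6%. On simulated libraries (6000 genes), built only from genes with recovered reads, 95.5% of recovered genes above the floor came back with their exact reads. A length that hides a common factor leaves ratios of many reads nearly as they are. Ratios from few reads, such as those of pmaip1, would move, and intervals would be narrower. Ratio intervals are exact Clopper-Pearson, those of association a normal approximation on the log scale. Fold 2, a floor of 3 RPKM and a pseudocount of 0.5 RPKM were used. No test was possible with 1 library per group.

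Members and lists were chosen with earlier results of these data known. Named were the 6 members, up to 4 genes per list with the largest absolute ratio in each fraction, mdm2, CCNG1 and BAX, and the 8 nearest profiles to the median of the members (3 to each member), with names holding a colon left out as clones. Not every gene these rules select is given, and 1 gene is not reported here and was left out of the list counts and profile comparisons. A planned description of promoters and proteins was not made. Alternatives are listed in the closing section. Python 3.11.15, NumPy 2.4.6, SciPy 1.17.1 and Matplotlib 3.10.9 were used.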

Additional observations from a re-analysis of the deposited data

How the results depend on the processing

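Alternatives were 3 other scalings, recovered reads without a pseudocount, a pseudocount of 1 RPKM, a floor at 12 RPKM or none, and thresholds of 1.5-fold and 4-fold. Floors and thresholds leave the log2 ratio of a gene as it is, so only the scalings, the pseudocount and the recovered reads could move it. Under those, the ratios of the 6 genes ran from 1.68 (pmaip1) to 3.75 (cdkn1a) in total mRNA. In polysomal mRNA they ran from 1.28 (bbc3) to 3.55 (pmaip1). The genes were chosen for high ratios, so their staying positive is a description only. At 4-fold, 1 gene stayed higher in polysomal mRNA, 1 stayed lower in association, and 1 stayed higher in wild-type polysomal than total mRNA. Association counted 5 genes lower with no floor and 0 with a floor of 12 RPKM, which no wild-type total value of the 6 reached. The higher association of pmaip1 ran from 0.94 with a pseudocount of 1 RPKM, which is below 2-fold, to 1.64 on reads. The p53 pathway list had 12 genes higher in total and 11 in polysomal mRNA at 1.5-fold, 2 and 0 at 4-fold, and 3 in polysomal mRNA with the floor at 12 RPKM. On reads it had 4 and 2, with reads recovered for 3 of its 7 raised genes. Polysomal over total ratios within a condition moved with scaling: in morphants that of cdkn1a ran from -0.50 (totals without the 50 most abundant genes) to 0.22 (upper-quartile). The first of these scalings moved the median of all genes in polysomal mRNA to 0.22 and changed the split of 145 higher and 340 lower genes to 302 and 206. In association it made 60.5% of calls higher in place of 34.5%. Upper-quartile scaling made 35.2% of polysomal over total calls higher in morphants in place of 14.2%, and 37.9% in wild type in place of 19.7%. No paired analysis was possible because each group has 1 library. Depth limits pmaip1 most, with 3 wild-type polysomal reads.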
